A study of Mus musculus with 8 samples.

Results

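Gdf3 and Gdf15 encode 2 secreted ligands of the transforming growth factor β (TGF-β) superfamily, and they were followed here through the cells of mouse livers with non-alcoholic steatohepatitis (NASH) and fibrosis. Both were chosen by their symbols from the 55450 genes of the count table after their levels in these libraries had been seen, so their levels and the genes that went with them are given as a description, without a test. Single-cell RNA sequencing (10x Genomics 3′ kit) had been made from 1 library per mouse. All 8 mice were wild-type C57BL/6. The 3 HFD+F+CCl4 mice had received a high-fat diet and a fructose solution plus intraperitoneal carbon tetrachloride (CCl4), a liver toxin. The 3 WD+F+CCl4 mice had received a western diet with the same solution and injections, and the 2 control mice a normal diet and drinking water. According to the study's methods the drink also held glucose, the CCl4 was injected weekly, and both models ran for the same number of weeks; age and sex were not given in the sources used here. Livers were dissociated with collagenase IV, papain and DNase I, so a cell type that survives dissociation poorly was counted at less than its share of the tissue.

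In mice GDF3 is known from pluripotent cells, where it takes part in Nodal-type signalling through the type I receptors ACVR1B and ACVR1C, the type II receptors ACVR2A and ACVR2B and the co-receptors TDGF1 and CFC1, and from macrophages of adipose tissue. GDF15 is a stress-responsive cytokine. It is induced by the integrated stress response through ATF4 and CHOP and by p53, and it acts through GFRAL, a receptor of hindbrain neurons that signals with RET. Both ligands are made as precursors whose carboxy-terminal end is released by proprotein convertases.

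Gdf3 (ENSMUSG00000030117) lies on the minus strand of GRCm38 at chr6:122605403-122610087 and Gdf15 (ENSMUSG00000038508) on the minus strand at chr8:70629393-70632456. In GENCODE vM21 each had 2 exons, and no other gene overlapped either of them. The last 100 codons of each reading frame, without the stop codon, are shown 5′ to 3′ because they lie in the end of the precursor that becomes the mature ligand. They came from a single exon, at chr6:122606309-122606608 and chr8:70629546-70629845, and capitals mark the in-frame cysteine codons (TGC or TGT).
Gdf3: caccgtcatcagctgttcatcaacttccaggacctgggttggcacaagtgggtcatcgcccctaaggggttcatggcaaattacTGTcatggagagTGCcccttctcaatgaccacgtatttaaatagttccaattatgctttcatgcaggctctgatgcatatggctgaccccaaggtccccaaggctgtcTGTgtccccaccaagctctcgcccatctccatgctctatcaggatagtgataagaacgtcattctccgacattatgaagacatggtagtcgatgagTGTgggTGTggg
Gdf15: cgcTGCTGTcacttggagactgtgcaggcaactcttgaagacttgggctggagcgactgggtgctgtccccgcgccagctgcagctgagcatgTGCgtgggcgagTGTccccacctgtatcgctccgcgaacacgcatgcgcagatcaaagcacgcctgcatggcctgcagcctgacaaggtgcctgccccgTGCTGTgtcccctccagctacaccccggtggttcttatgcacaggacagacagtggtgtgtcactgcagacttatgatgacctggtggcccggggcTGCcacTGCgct
The Gdf3 stretch held 5 cysteine codons and the Gdf15 stretch 8, out of reading frames of 366 and 303 codons. Both ended with a cysteine codon, 1 other codon and a further cysteine codon, at positions 97 and 99 of the 100, and both had a cysteine codon at position 65. Gdf15 differed by pairs of adjacent cysteine codons, at positions 2 and 3 and at positions 65 and 66.

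Barcodes with 500 or fewer genes, or with 25% or more of their UMIs (unique molecular identifiers, which count molecules) from mitochondrial genes, were left out. After this, 31956 cells remained from HFD+F+CCl4 mice, 33562 from WD+F+CCl4 mice and 14956 from control mice. Library totals were 46275590 to 64855024 UMIs in NASH mice, 36699315 in control replicate 1 and 6135827 in control replicate 2. Control replicate 2 stood apart with a median of 992.5 UMIs per kept cell, against 2397 to 4278 in the other 7 libraries. HFD+F+CCl4 replicate 1 held 2609 of the 3170 cells of cluster 8 and 2159 of the 2379 cells of cluster 11, both with early response or heat shock genes such as Fosb and Hspa1a among their leading genes. Of the 80474 kept cells, 1467 (1.82%) carried a barcode sequence that also occurred in another library.

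Gdf3 UMIs were found in the kept cells of NASH livers and were nearly absent from the kept cells of control livers. Over all kept NASH cells, 11298 Gdf3 UMIs were counted in 4455 cells (6.8%), and 1 Gdf3 UMI was counted in the 14956 control cells. For Gdf15 the counts were 4178 UMIs in 1974 NASH cells (3.01%) and 17 UMIs in control cells. Of the macrophage clusters, cluster 0 held 13 and 4 control cells, cluster 15 held 7 and 0 and cluster 17 held 36 and 14. In cluster 17 the single NASH mice held 25 to 764 cells. The control mice thus gave few macrophages. Their counts therefore say little about these genes in control macrophages. Cells with at least 1 UMI of Csf1r, the receptor of colony-stimulating factor 1 that marks monocytes and macrophages, made up 68.05% of the NASH cells. They carried 97% of the NASH Gdf3 UMIs and 90.95% of the NASH Gdf15 UMIs.

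In the Csf1r-positive cells of the HFD+F+CCl4 mice, Gdf3 stood at 45.8, 48.9 and 34.6 counts per 1000000 UMIs (CPM) in replicates 1 to 3. In the WD+F+CCl4 mice it stood at 36.3, 21.8 and 59.6 CPM. It had 0 UMIs in the 1110 and 411 Csf1r-positive cells of the control mice. Every NASH mouse therefore lay above both controls, and the ranges of the NASH models overlapped: the WD+F+CCl4 mice held both the lowest and the highest value. The means were 43.1 ± 7.51 CPM (SD, n = 3) in HFD+F+CCl4 and 39.2 ± 19.0 CPM (SD, n = 3) in WD+F+CCl4. Set against the limit that a count of 0 allows over both controls together (3 UMIs, or 0.463 CPM), the single NASH mice were at least 47.1-fold to 129-fold higher. The Csf1r-positive cells of the groups differed in kind. Clusters left unnamed held 22.61% and 41.85% of them in the control mice, against at most 0.861% in a NASH mouse. Cells scored as both NK and T cells held 11.98% and 12.9%, against at most 0.148%. The 339 and 86 classical monocyte-like cells among the control cells also had 0 Gdf3 UMIs. This name joins clusters that divided by group. Of all kept cells, cluster 30 held 343 and 162 from the control mice and at most 9 from a NASH mouse. Cluster 2 held 31 and 23 from the control mice and 406 to 2507 from the single NASH mice. The count of 0 therefore does not compare like cells. In such sums over Csf1r-positive cells, fewer cells of a type and less RNA per cell cannot be told apart.

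Gdf15 in the same cells stood at 35.1, 9.04 and 4.59 CPM in HFD+F+CCl4 replicates 1 to 3 and at 17.5, 6.98 and 13.8 CPM in WD+F+CCl4 replicates 1 to 3. Both controls were again at 0 UMIs. All 6 NASH mice were above the controls, and the values of the NASH models overlapped. HFD+F+CCl4 replicate 1 was the highest and held 37.05% of the Gdf15 UMIs. The HFD+F+CCl4 mean was 16.2 CPM over 3 mice and 6.81 CPM without replicate 1, and the mean over the NASH mice changed from 14.5 ± 11.1 CPM (SD, n = 6) to 10.4 ± 5.22 CPM (SD, n = 5). Against the same limit, the single NASH mice were at least 9.91-fold to 75.8-fold higher. Without Csf1r-positive cells that also held 2 or more UMIs of other lineages' markers, the limit was 9.275 CPM and 3 of 6 NASH mice lay below it for Gdf15, and 0 of 6 for Gdf3. That choice left only 62 and 73 control cells, and 1177 to 4247 cells per NASH mouse. The highest NASH mouse stood 7.65 times above the lowest for Gdf15 and 2.73 times for Gdf3. In HFD+F+CCl4 replicate 1 the summed level of 11 early response and heat shock genes (picked after the data had been seen) was 4478 CPM in Csf1r-positive cells, against 775 to 1665 CPM in the other NASH mice and 640 and 652 CPM in control mice. The part of these genes in the high Gdf15 of this mouse was not tested.

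**Figure D1:**
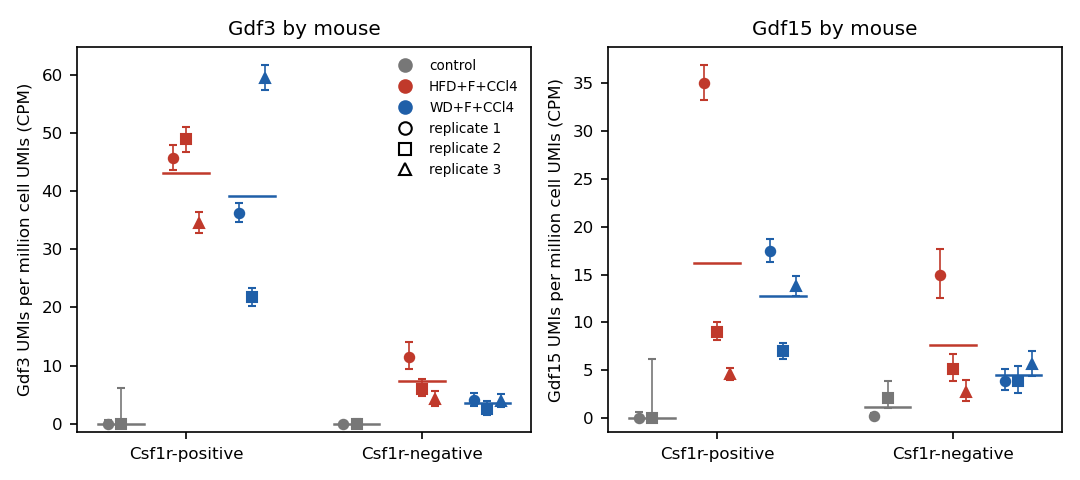
Gdf3 and Gdf15 in Csf1r-positive and Csf1r-negative cells of each mouse, in CPM, with 1 point per mouse, error bars for the 95% counting interval and a line at each group mean. In Csf1r-positive cells the 6 NASH mice lie between 21.8 and 59.6 CPM for Gdf3 and between 4.59 and 35.1 CPM for Gdf15, with both controls at 0, and the Csf1r-negative cells lie lower in every NASH mouse.

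The share of Csf1r-positive cells with a Gdf3 UMI was 9.60%, 10.6% and 9.17% in HFD+F+CCl4 mice and 9.36%, 5.28% and 12.1% in WD+F+CCl4 mice. Summed over NASH mice it was 9.41% (95% exact binomial interval 9.14 to 9.68%, counting error only), or 3.15% after each cell had been thinned to 1000 UMIs. The control count of 0 in 1521 cells allows a share of up to 0.197%. For Gdf15 the shares were 8.97%, 2.84% and 1.23% in HFD+F+CCl4 mice and 4.14%, 1.71% and 3.86% in WD+F+CCl4 mice, which came to 3.86% (3.68 to 4.04%) in all and to 1.09% after thinning. The cells behind these shares were of unequal depth: the median was 3920.5 to 5926 UMIs per Csf1r-positive cell in NASH mice, 4326 in control replicate 1 and 1009 in control replicate 2. Markers of other cell types also differed between the groups in the Csf1r-positive cells. The summed hepatocyte markers were 2939 and 2963 CPM in control mice and 90.3 to 1024 CPM in NASH mice, and the summed T cell markers 1164 and 1669 CPM against 60.1 to 291 CPM. Their part in the controls' counts of 0 was not tested.

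Free RNA in the droplets can place a UMI in a cell that does not make it, so T cell-like and B cell-like cells were taken as a background. In NASH T cell-like cells (median 2367 UMIs) 0.913% of 6023 cells held a Gdf3 UMI and 0.382% a Gdf15 UMI, or 0.294% and 0.126% after thinning. In NASH B cell-like cells (median 1709 UMIs) the shares were 1.04% and 0.451% of 2882 cells. The Csf1r-positive shares after thinning, 3.15% and 1.09%, were above these T and B cell values for both genes. Other types had higher thinned shares for Gdf3 and, apart from red blood cell-like cells, for Gdf15, as means over mice. These were 1.08% and 0.339% in NK cell-like, 1.932% and 0.103% in red blood cell-like and 1.54% and 1.378% in hepatocyte-like cells. The Csf1r-positive means were 3.132% and 1.07%, so hepatocyte-like cells lay above them for Gdf15. The part of free RNA in these shares was not tested.

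Clusters were named from marker lists, with "-like" for a name rebuilt here, and neither member entered the clustering. The cells that scored for both C1q macrophages and macrophages with Trem2 and Gpnmb (clusters 0 and 11), called Trem2 macrophage-like below, had the highest mean Gdf3. Trem2 encodes a lipid-sensing receptor and Gpnmb a glycoprotein of lipid-laden macrophages. In these cells Gdf3 stood at 77.2, 83.1 and 82.3 CPM in HFD+F+CCl4 mice and at 79.7, 45.2 and 108 CPM in WD+F+CCl4 mice. Only WD+F+CCl4 replicates 2 and 3 stood away from about 80 CPM, on opposite sides. These 12490 cells were 19.1% of the kept NASH cells and held 56.8% of the NASH Gdf3 UMIs. A Gdf3 UMI was present in 16.2% of them (15.6 to 16.9%; 6.06% after thinning; median 5842.5 UMIs). Control livers gave 17 such cells with 0 Gdf3 UMIs, which allows a share of up to 17.6%, so Gdf3 in control cells of this kind was not measurable at this depth.

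Below them in the order of Gdf3 levels came the cells scored as both C1q macrophages and patrolling monocytes, at 58.7 ± 28.6 CPM (SD, n = 5 mice with at least 20 such cells). Kupffer-like cells, the resident macrophages of the liver, followed at 47.2 ± 17.7 CPM (SD, n = 5), and macrophage-like cells with the chemokines Cxcl9 and Cxcl10 at 38.9 ± 18.9 CPM (SD, n = 6). Patrolling monocyte-like cells had 28.5 ± 8.46 CPM and classical monocyte-like cells 18.7 ± 5.58 CPM. Cycling cells (27.7 ± 18.8 CPM) and red blood cell-like cells (27.2 ± 15.5 CPM, n = 4) lay between these monocyte types. Neutrophil-like cells (18.3 ± 8.73 CPM), NK cell-like cells (17.3 ± 11.5 CPM) and hepatocyte-like cells (14.6 ± 11.1 CPM) came just below the classical monocyte-like cells. Dendritic and other lymphoid cells came further down. Type 2 dendritic cell-like cells had 8.33 ± 6.70 CPM, T cell-like cells 4.87 ± 3.38 CPM and type 1 dendritic cell-like cells 2.22 ± 2.31 CPM. Over 19 cell types none of the 18 neighbours in the order differed by more than 1 pooled SD. The first 8 types kept their ranks when the share of positive cells after thinning replaced the CPM.

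Gdf15 had another order. Kupffer-like cells came first at 38.5 ± 28.3 CPM (SD, n = 5), with 47.0, 30.1 and 11.6 CPM in HFD+F+CCl4 mice, 83.3 CPM over only 31 cells in WD+F+CCl4 replicate 2 and 20.2 CPM in WD+F+CCl4 replicate 3. WD+F+CCl4 replicate 1 had 8 Kupffer-like cells and did not enter. The Trem2 macrophage-like cells followed at 29.8 ± 20.3 CPM (SD, n = 6), with 50.6, 14.6 and 14.4 CPM in HFD+F+CCl4 mice and 60.3, 17.8 and 21.1 CPM in WD+F+CCl4 mice. Replicate 1 of each model was thus high here and the other 4 mice lay close together. The order of the means did not hold within each mouse. Trem2 macrophage-like cells stood above Kupffer-like cells in HFD+F+CCl4 replicates 1 and 3 and in WD+F+CCl4 replicate 3. Kupffer-like cells stood above them in replicate 2 of each model. A Gdf15 UMI was present in 12% of Kupffer-like cells (3.27% after thinning) and in 7.63% of Trem2 macrophage-like cells (2.29% after thinning). The Trem2 macrophage-like cells held 57.1% of all NASH Gdf15 UMIs.

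Among the other types, the Cxcl9 Cxcl10 macrophage-like cells had 21.3 ± 36.1 CPM of Gdf15, a mean set by HFD+F+CCl4 replicate 1. Hepatocyte-like cells had 10.9 ± 2.17 CPM, with a small spread between mice. Classical monocyte-like cells had 4.09 ± 3.77 CPM, close to the 2.51 CPM of T cell-like cells. As for Gdf3, none of the 18 neighbours in this order differed by more than 1 pooled SD. After thinning, Kupffer-like and Trem2 macrophage-like cells kept the first and the second rank and hepatocyte-like cells moved to the third.

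**Figure D2:**
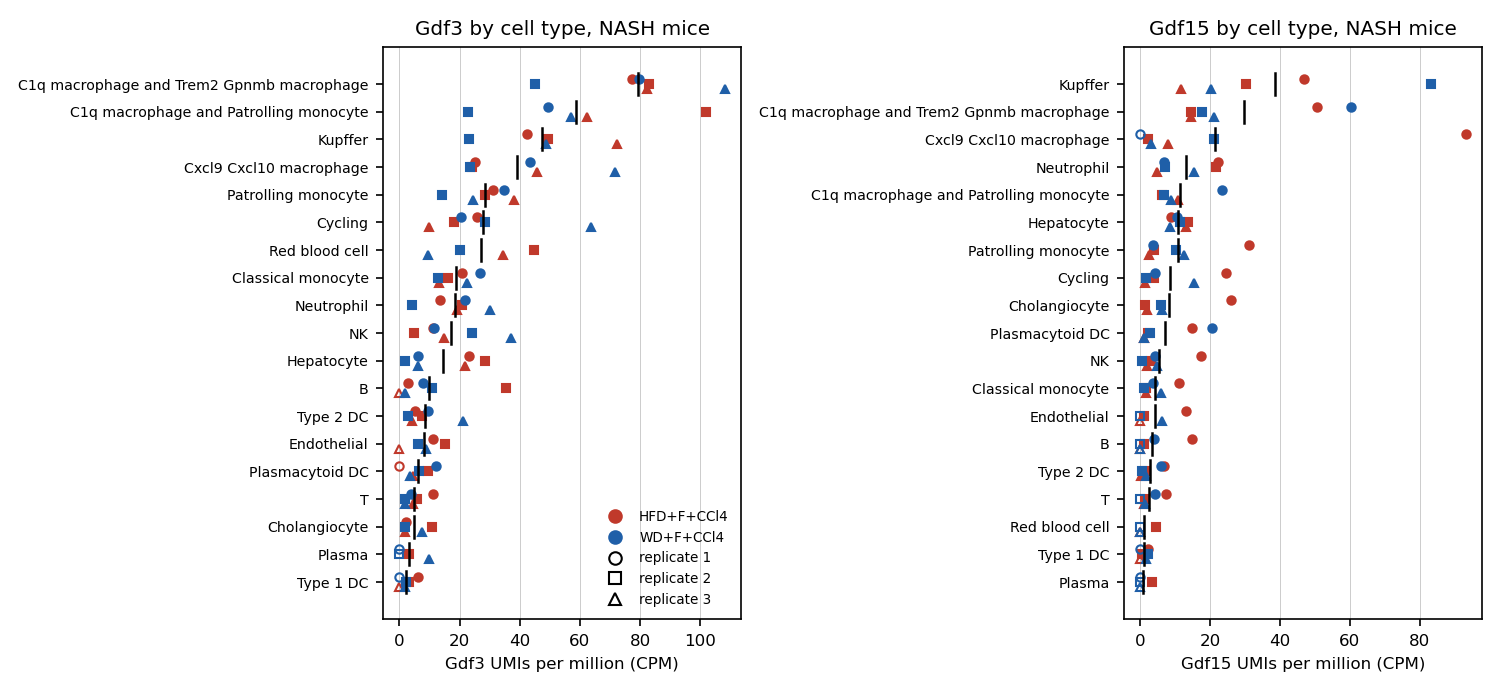
Gdf3 and Gdf15 in 19 marker-defined cell types of NASH livers, in CPM, ordered by the mean, with 1 point per mouse with at least 20 cells of the type (open where it had 0 UMIs), colour for the model, shape for the replicate and a line at the mean. By the mean over mice, Trem2 macrophage-like cells lead for Gdf3 (79.2 CPM) and Kupffer-like cells for Gdf15 (38.5 CPM). The Kupffer-like mean for Gdf15 includes 83.3 CPM from only 31 cells of WD+F+CCl4 replicate 2. The mice spread over ranges that overlap between neighbouring types.

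The 2 clusters of Trem2 macrophage-like cells did not carry the members equally. In cluster 0, which held 10111 NASH cells from all 6 mice, Gdf3 stood at 99.4, 82.8 and 83.1 CPM in HFD+F+CCl4 mice and at 79.7, 45.5 and 108 CPM in WD+F+CCl4 mice. Gdf15 in this cluster stood at 27.3, 12.8 and 13 CPM in HFD+F+CCl4 mice and at 55.8, 14.2 and 14.5 CPM in WD+F+CCl4 mice. The mouse with the highest Gdf15, WD+F+CCl4 replicate 1, was thus not the mouse with the highest Gdf3. Cluster 11, led by the early response and stress genes Gadd45g, Fos, Fosb, Atf3, Egr2 and Hspa1a, had 61.6 CPM of Gdf15 in HFD+F+CCl4 replicate 1, and Gdf15 itself was among its 10 leading genes although it had not entered the clustering. The few cells of this cluster in other mice, between 9 and 133 per mouse, had 57.3 to 888 CPM. Cluster 11 held 3.63% of the NASH cells and 23.7% of the NASH Gdf15 UMIs. The early response and heat shock sum in HFD+F+CCl4 replicate 1 was 4996 CPM in cluster 11 and 1300 CPM in cluster 0.

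Some Gdf3 UMIs lay in clusters named for other cell types. Of these, clusters 18, 34 and 23 had monocyte or macrophage markers in second place. So did cluster 6 (endothelial-like, 149 Gdf3 UMIs), with Kupffer markers at a score of 0.96. Clusters 3, 21 and 24 were among those where such markers came second at a low score (0.37, 0.38 and 0.45). Others did not: cluster 4 (type 2 dendritic cell-like, 173 Gdf3 UMIs) had type 1 dendritic cell markers second. Cluster 16 (NK cell-like, 141 Gdf3 UMIs) had T cell markers second. Cluster 18, neutrophil-like with patrolling monocyte markers in second place, held 307 of the 360 Gdf3 UMIs of neutrophil-like cells, and 11.3% of its 1138 NASH cells were positive at a median of 7015 UMIs. In cluster 3, which scored as neutrophil-like at a median of 1319 UMIs, 0.685% of 4674 cells held a Gdf3 UMI (0.371% after thinning), close to the T cell-like and B cell-like shares given above. In B cell-like cells, 66 of 77 Gdf3 UMIs lay in cluster 34, where classical monocyte markers came second. Whether these barcodes held more than 1 cell was not tested. Cycling cells carried Gdf3 mainly in cluster 23, where markers of Trem2 Gpnmb macrophages came second. Its 871 NASH cells had 43.7, 43.4 and 67.3 CPM in HFD+F+CCl4 mice and 62.9, 58.9 and 85.9 CPM in WD+F+CCl4 mice, a range that overlapped with that of the Trem2 macrophage-like cells. They held 632 of the 660 Gdf3 UMIs of all cycling cells.

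Single cells varied widely in their member counts. Of the 4194 NASH Csf1r-positive cells with a Gdf3 UMI, 54.1% had at least 2 UMIs, 637 had at least 5 and 102 at least 10, with a maximum of 27. Cells with at least 5 UMIs held 42.5% of the Gdf3 UMIs. For Gdf15, 38.6% of 1719 positive cells had at least 2 UMIs, 147 had at least 5 and 41 at least 10, with a maximum of 49. Of the 102 kept cells with at least 10 Gdf3 UMIs, 65 were Trem2 macrophage-like, and these came from all 6 NASH mice. Of the 42 kept cells with at least 10 Gdf15 UMIs, 28 were Trem2 macrophage-like, again from all 6 mice. Both transcripts were thus concentrated in a minority of the cells of this type.

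The members were found in the same Csf1r-positive cell more often than cell depth gave in each of the 6 NASH mice, by between 1.16 and 1.91 times. When the expected number was computed within bins of cell depth, the cells with both UMIs were 1.16, 1.26 and 1.91 times the expected number in Csf1r-positive cells of HFD+F+CCl4 mice and 1.52, 1.54 and 1.17 times in those of WD+F+CCl4 mice, over 12 to 104 cells per mouse. Within cluster 0 the ratios were 0.59, 1.01 and 0.91 in HFD+F+CCl4 mice and 1.41, 1.51 and 1.15 in WD+F+CCl4 mice. Within this cluster the ratio was thus near or below 1 in the HFD+F+CCl4 mice and above 1 in the WD+F+CCl4 mice, over 6 to 41 cells with both UMIs per mouse.

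The genes that went with each member were ranked over 12251 genes by the median over the NASH mice of the correlation within each mouse. The cells of a mouse share their library, and these correlations in sparse counts were weak, so they are given as an order only. For Gdf3 the first 15 genes were Apoe (r = 0.169), Lgmn, Ctsb, C3ar1, Ctsd, Ms4a7, Maf, C1qb, C1qc, Trem2, Ctss, Grn, Ftl1, Aif1 and C1qa (r = 0.128). They include the lysosomal proteases Lgmn, Ctsb, Ctsd and Ctss, the 3 chains of complement C1q and the apolipoprotein of lipid-handling macrophages. Apoe, Ms4a7, C1qa, C1qb, C1qc and Trem2 were among the markers that named cluster 0, so these genes are not separate from the name. The median r over all compared genes was 0.003, and the top percentile of genes began at r = 0.077. Inside cluster 0 the same 15 genes fell in a range of r from 0.005 to 0.078, and 3 of them remained among its first 15. Cells with a Gdf3 UMI were deeper than those without, with medians of 5875 against 3712.5 UMIs in HFD+F+CCl4 replicate 1.

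For Gdf15 the first 15 genes were Atf3 (r = 0.156), Vat1, Gpnmb, Fabp5, Ctsd, Fnip2, Pld3, Nceh1, Por, Lhfpl2, Ctsb, Cd63, Tent5c, Plin2 and Mfsd12 (r = 0.118). Atf3 encodes a stress-induced transcription factor, and Fabp5, Nceh1 and Plin2 encode proteins that bind fatty acids, release cholesterol from its esters and coat lipid droplets. Gpnmb, Fabp5 and Cd63 were among the markers that named cluster 0. Inside cluster 0 the 15 genes had r from 0.113 to 0.189, and 8 of them remained among its first 15 and 15 among its first 100. This is unlike Gdf3, where 10 of 15 were among the first 100 of the cluster. The order for Gdf15 differed more between the models, with 2 genes shared by the first 15 of each, against 10 for Gdf3. Without HFD+F+CCl4 replicate 1, 11 of the 15 Gdf15 genes and 14 of the 15 Gdf3 genes remained.

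**Figure D3:**
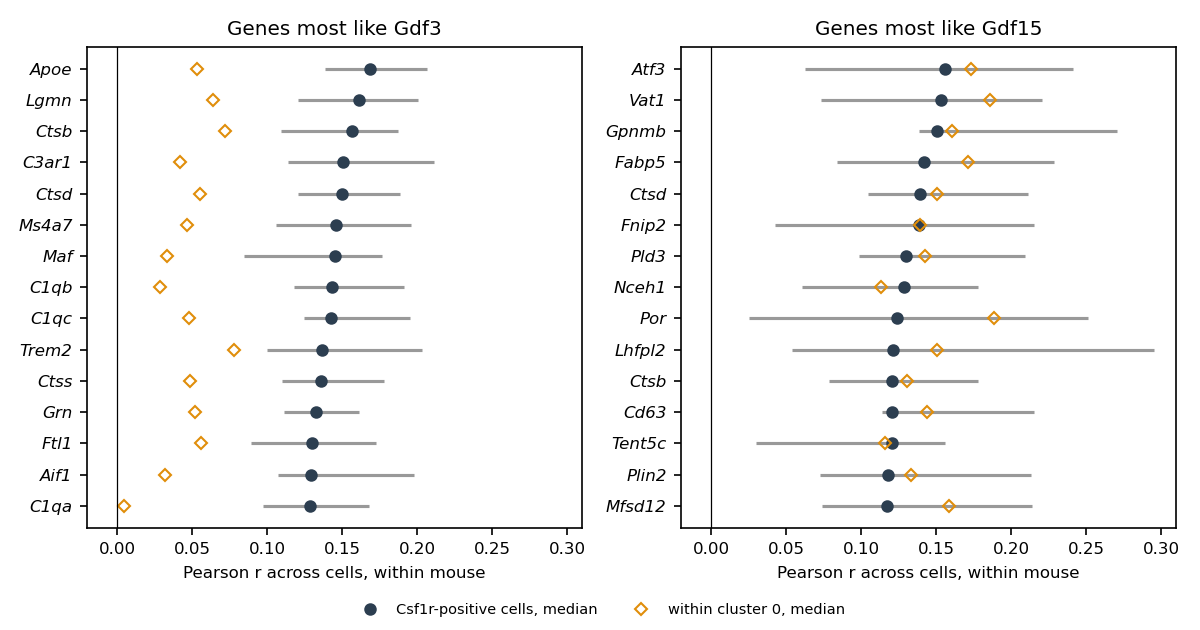
The 15 genes most like Gdf3 and the 15 most like Gdf15 across Csf1r-positive NASH cells, by Pearson r within each mouse, with the median over mice as a filled point, the range over mice as a line and the median within cluster 0 as an open diamond. The medians reach 0.169 for Gdf3 and 0.156 for Gdf15; the diamonds lie at 0.078 or below for Gdf3 and at 0.113 or above for Gdf15.

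Over the 21 cell types, with 15901 genes compared, the genes with the Gdf3 pattern were Daglb (r = 0.963), Tlr8 (0.957), Clec4a2 (0.935), Siglec1 (0.933) and Tnfrsf11a (0.931). Tlr8 encodes a receptor for single-stranded RNA and Siglec1 a sialic acid-binding receptor of macrophages. For Gdf15 they were Napa (0.879), Smcr8 (0.871), Litaf (0.864), Cyp4v3 (0.848) and BC005537 (0.846). The types share libraries and most lie near 0, so these values describe which types were high.

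Within the Trem2 macrophage-like Csf1r-positive cells of NASH mice, cells were also grouped by their number of member UMIs. Cells with 0, 1, 2 to 4 and at least 5 Gdf3 UMIs numbered 9880, 664, 858 and 453. The summed Trem2 Gpnmb macrophage markers stood at 5075, 4830, 5400 and 8848 CPM in these groups, and the 15 genes of the list for peroxisome proliferator-activated receptor γ (PPARγ) and lipid handling at 5396, 4964, 5488 and 8477 CPM. Both lists contain Fabp5 and Lpl, so their sums are not separate observations. The sums pool the cells of the NASH mice. Only the cells with at least 5 Gdf3 UMIs stood above the rest, and these were deeper (median 8950 against 5823 UMIs). In those cells the fatty acid transporter gene Cd36 was at 504 CPM against 245 CPM with 0 UMIs, Fabp5 at 2317 against 1191 CPM and the lipoprotein lipase gene Lpl at 2102 against 1244 CPM, each higher in 6 of 6 mice. With 5 CPM added, the log2 ratio within a mouse ran from 0.046 to 1.33 for Cd36, 0.586 to 1.205 for Fabp5 and 0.163 to 1.135 for Lpl. The other genes of the 2 lists were not alike. Cd9, Cd63, Trem2, Abca1 and Angptl4 were also higher in 6 of 6 mice, and Fabp4, Gpnmb, Lipa, Plin2 and Abcg1 in 5. Pparg itself, Rxra, Nr1h3 and Mmp12 were higher in 4 of 6, Cpt1a and Ctsk in 3 and Olr1 and Pdk4 in 1. Apoe, the first of the genes that went with Gdf3, was at 35581 against 35454 CPM and higher in 3 of 6 mice. C1q markers were at 46014 against 45736 CPM, genes of the integrated stress response at 1282 against 1391 CPM and p53 target genes at 756 against 749 CPM. The stress gene Nupr1 was lower with Gdf3 in 6 of 6 mice (44.4 against 68.4 CPM).

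Cells with 0, 1, 2 to 4 and at least 5 Gdf15 UMIs numbered 10953, 512, 290 and 100. Here the Trem2 Gpnmb markers were already high with 1 UMI, at 4925, 8650, 9253 and 8813 CPM, and the PPARγ and lipid handling genes stood at 5236, 8307, 8861 and 8936 CPM. Fabp5 and Lpl again count in both of these sums. Each sum pools the cells of the NASH mice, which held 98 to 712 Gdf15-positive Csf1r-positive cells each. The sums therefore also depend on the mix of mice in a group. The genes of the integrated stress response stood higher in each further group, at 1316, 1719, 2214 and 3291 CPM, and p53 targets at 705, 1031, 1186 and 1479 CPM. C1q markers stood at 46105, 46063, 45517 and 40296 CPM. The median depth was 5928 UMIs with 0 Gdf15 UMIs and 7169 UMIs with at least 5. In the 3 mice with at least 10 cells of at least 5 Gdf15 UMIs (HFD+F+CCl4 replicate 1 and WD+F+CCl4 replicates 1 and 3), the stress sum was 2145, 3201 and 6052 CPM, against 1689, 1444 and 1161 CPM in the same mice with 0 UMIs. The stress list was thus higher with Gdf15 in each of these mice. The p53 sum was 748, 2341 and 1444 CPM in the same order, against 868, 1116 and 594 CPM with 0 UMIs, so that it was higher in the WD+F+CCl4 mice and lower in HFD+F+CCl4 replicate 1. C1q markers went the other way, at 24619 and 26248 CPM in the WD+F+CCl4 mice (35262 and 46901 CPM with 0 UMIs) and at 65057 CPM in HFD+F+CCl4 replicate 1 (58628 CPM with 0 UMIs).

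Some genes of these lists were higher with at least 5 Gdf15 UMIs than with 0, and others were not. Atf3 stood at 717 against 169 CPM, Atf4, which encodes the main transcription factor of the integrated stress response, at 443 against 118 CPM, and its target Slc7a11, a cystine transporter gene, at 54.8 against 6.55 CPM, each higher in 3 of 3 mice. The size differed between mice: with 5 CPM added, the log2 ratio ran from 0.032 to 3.6 for Atf3, 0.556 to 3.52 for Atf4 and 1.855 to 4.07 for Slc7a11. Among p53 targets, Mdm2 stood at 239 against 61.8 CPM and Plk2 at 214 against 36.1 CPM, higher in 3 of 3 mice. Cdkn1a stood at 363 against 114 CPM and Ddit3, which encodes CHOP, at 113 against 39.2 CPM, each higher in 2 of 3 mice, and Sesn1 was higher in 0 of 3. Psat1, Eif4ebp1 and Cebpg of the stress list and Btg2, Trp53inp1 and Gadd45a of the p53 list were each higher in 1 of 3 mice. Trem2 differed little (782 against 668 CPM), while Gpnmb stood at 2819 against 1178 CPM. Of the Trem2 Gpnmb markers, Trem2, Gpnmb, Cd63 and Ctsk were higher in 3 of 3 mice and Cd9, Fabp5, Lpl and Mmp12 in 2 of 3. In the lipid list, Cd36, Plin2, Lipa, Rxra and Nr1h3 were higher in 3 of 3 mice. Olr1 was higher in 1, Pdk4 in 0 and the rest of that list in 2.

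**Figure D4:**
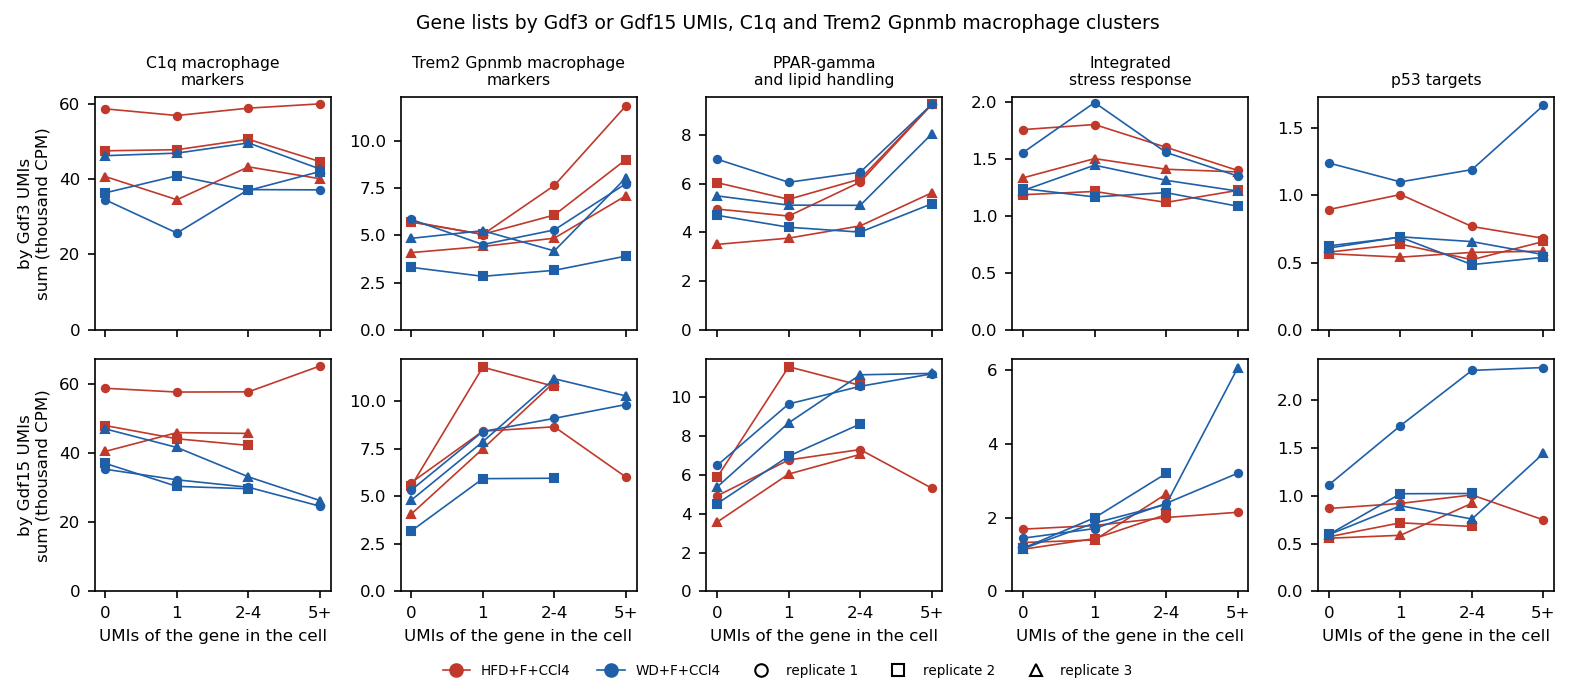
Summed levels of 5 gene lists, on linear axes in 1000 CPM, in Trem2 macrophage-like Csf1r-positive NASH cells grouped by their number of Gdf3 UMIs (upper row) or Gdf15 UMIs (lower row), with 1 line per mouse where a group held at least 10 cells. The Trem2 Gpnmb markers and the lipid list both contain Fabp5 and Lpl. The integrated stress response list lies between 1084 and 1398 CPM in cells with at least 5 Gdf3 UMIs and between 2145 and 6052 CPM in cells with at least 5 Gdf15 UMIs.

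To place the members among their pathways, UMIs were summed over the Csf1r-positive cells of each mouse and 18454 genes were tested with edgeR's quasi-likelihood test, with Benjamini-Hochberg adjustment over all of them. Of the GDF3 receptors and co-receptors, 3 were tested and 0 were called. Of all genes, 7.43% (HFD+F+CCl4) and 11.6% (WD+F+CCl4) were called, so 0 of 3 says little about the receptors. Acvr1b, a type I receptor, stood at 22.3, 19.0 and 21.5 CPM in HFD+F+CCl4 mice, 19.5, 21.9 and 17.3 CPM in WD+F+CCl4 mice and 17.8 and 28.3 CPM in control mice, so the control range covered nearly all NASH mice. Its log2 fold change was 0.10 ± 0.21 (SE) in HFD+F+CCl4 (edgeR adjusted p = 0.849) and 0.08 ± 0.21 in WD+F+CCl4 (edgeR adjusted p = 0.868), with the sign turned under 2 and 5 of 18 alternatives, library totals in place of TMM scaling among them. For the type II receptors, the log2 difference of Acvr2a from control was 0.20 ± 0.32 (HFD+F+CCl4, edgeR adjusted p = 0.785) and -0.12 ± 0.32 (WD+F+CCl4, edgeR adjusted p = 0.907). That of Acvr2b was 1.07 ± 0.49 in the first (edgeR adjusted p = 0.222) and 0.55 ± 0.48 in the second (edgeR adjusted p = 0.512). The sign of Acvr2b turned without mixed barcodes (-0.128 and -0.732), and that of Acvr2a turned under 1 alternative in HFD+F+CCl4 and under 3 in WD+F+CCl4, so no direction is given for these receptors. Acvr1c, Tdgf1 and Ret were too low for the test, with 13, 61 and 103 UMIs in all 80474 kept cells. Cfc1 and Gfral, the receptor gene of GDF15, had 0 UMIs, which allows a UMI in up to 0.00373% of kept cells.

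By cell type in NASH mice, Acvr1b was highest in Cxcl9 Cxcl10 macrophage-like cells (35.1 ± 7.07 CPM, SD) and patrolling monocyte-like cells (32.6 ± 1.34 CPM), and it stood at 17.5 ± 2.56 CPM in the Trem2 macrophage-like cells that held most Gdf3. Acvr2a stood at 55.9 ± 6.60 CPM in stellate cell- or myofibroblast-like cells and at 34.6 ± 14.9 CPM in cells scored as both NK and T cells, each over 2 mice and the latter from 5 UMIs. Among types with 4 or more mice it was highest in endothelial-like cells (26.7 ± 2.34 CPM), and Acvr2b was highest in endothelial-like cells (16.5 ± 3.31 CPM). The receptors' highest types were thus not the type with the most Gdf3.

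Genes that are targets of PPARγ or handle lipid, a list that includes Fabp5 and Plin2 of the 15 genes that went with Gdf15, were called higher more often than all genes in both models. Of 15 genes tested, 9 rose in HFD+F+CCl4, where 7.43% of all genes tested were called and 3.74% were called higher. In WD+F+CCl4 11 of the 15 rose, where 11.6% were called and 6% were called higher. None fell. The list's median log2 fold change was 1.89 and 2.15, beside 0.08 and 0.04 over all genes tested. Pparg, the receptor gene itself, stood at 48.8, 43.0 and 45.9 CPM in HFD+F+CCl4 mice, 53.1, 35.5 and 35.7 CPM in WD+F+CCl4 mice and 4.25 and 4.99 CPM in control mice, with no overlap (log2 fold change 3.47 ± 0.29 and 3.40 ± 0.29; edgeR adjusted p = 0.00303 and 0.002). Plin2, the lipid droplet coat gene, stood at 519, 737 and 281 CPM, at 972, 584 and 735 CPM and at 74.8 and 94.7 CPM, again without overlap (2.77 ± 0.43 and 3.43 ± 0.45; edgeR adjusted p = 0.0131 and 0.00586). Fabp5 stood at 931, 799 and 414 CPM, at 572, 239 and 694 CPM and at 106 and 56.5 CPM, so that every NASH mouse lay above the controls (3.18 ± 0.58 and 2.76 ± 0.57; edgeR adjusted p = 0.0205 and 0.0216). Angptl4, an inhibitor of lipoprotein lipase, rose by 2.86 ± 0.70 and 2.92 ± 0.70 (edgeR adjusted p = 0.0484 and 0.0350), with 6.09 CPM in HFD+F+CCl4 replicate 3 and 18.1 to 29.3 CPM in the other NASH mice, and its calls were kept in 6 and 9 of 18 alternatives. The list's count ran from 2 to 11 in HFD+F+CCl4 and from 5 to 11 in WD+F+CCl4 over 18 alternatives. The makeup of the Csf1r-positive cells moved with the list: Trem2 macrophage-like cells made up between 15.05% and 36.3% of them in the NASH models, against 0.901% and 0.487% in the controls. Summed C1q markers stood at 12228 to 36713 CPM against 2222 and 2343 CPM, and summed Trem2 Gpnmb markers at 1655 to 3930 CPM against 511 and 334 CPM. The part of this makeup in the list's calls was not tested.

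Of 20 genes of the integrated stress response, which includes inducers of Gdf15, 3 rose and 1 fell in each model, and 16 did not pass the test. This is 20% of the list, beside 7.43% and 11.6% of all genes called in HFD+F+CCl4 and in WD+F+CCl4, and over 18 alternatives 0 to 6 of its genes rose. Atf4 and Ddit3, the genes of the inducers ATF4 and CHOP, were among the 16 that did not pass. In HFD+F+CCl4 edgeR's adjusted p was 0.807 for Atf4 (log2 fold change 0.178) and 0.49 for Ddit3 (0.371). In WD+F+CCl4 it was 0.960 for Atf4 (-0.043) and 0.951 for Ddit3 (0.049). Cebpb, which encodes a partner of the ATF4 pathway, stood at 722, 524 and 993 CPM in HFD+F+CCl4 mice, 740, 682 and 609 CPM in WD+F+CCl4 mice and 200 and 199 CPM in control mice, without overlap (log2 fold change 2.07 and 1.99; edgeR adjusted p = 0.0144 and 0.0110). Slc3a2, the heavy chain gene of amino acid transporters, rose by 1.44 and 1.62 on the log2 scale (edgeR adjusted p = 0.0228 and 0.0115) and the translation inhibitor gene Eif4ebp1 by 1.36 and 1.5 (edgeR adjusted p = 0.0413 and 0.0237), the Eif4ebp1 calls being kept in 5 and 11 of 18 alternatives. Phgdh, the first enzyme of serine synthesis, fell by 1.84 and 1.97 (edgeR adjusted p = 0.0356 and 0.0215), but its log2 fold changes were 1.93 and 1.83 when monocyte and macrophage clusters replaced the Csf1r-positive cells, and its calls were kept in 7 and 11 of 18 alternatives. Of the p53 targets, 1 of 13 (7.69%) rose in each model, a share close to the 7.43% of all genes called in HFD+F+CCl4 and below the 11.6% in WD+F+CCl4, and over 18 alternatives 0 to 2 and 0 to 1 rose. It was Phlda3, at 6.08 to 9.77 CPM in HFD+F+CCl4 mice, 7.98 to 13.2 CPM in WD+F+CCl4 mice and 1.87 and 3.32 CPM in control mice (log2 fold change 1.98 and 2.34; edgeR adjusted p = 0.0338 and 0.0147), called in 8 and 13 of 18 alternatives.

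In Smad signalling, the branch downstream of TGF-β family receptors, 2 of 12 genes rose in HFD+F+CCl4 and 1 of 12 in WD+F+CCl4, where 3.74% and 6% of all genes were called higher. Over 18 alternatives these counts ran down to 0 in both models. Skil, a target and inhibitor of Smad signalling, stood at 213, 155 and 157 CPM in HFD+F+CCl4 mice, 123, 119 and 128 CPM in WD+F+CCl4 mice and 75.5 and 71.5 CPM in control mice, and the groups did not overlap (log2 fold change 1.38 and 0.95; edgeR adjusted p = 0.00599 and 0.0119). Smad1 rose by 0.71 in HFD+F+CCl4 (edgeR adjusted p = 0.0359), a call kept in 4 of 18 alternatives, and had a log2 fold change of 0.58 in WD+F+CCl4 (edgeR adjusted p = 0.0518). Of the 4 proprotein convertases, which release ligands from their precursors, none was called in HFD+F+CCl4 and 1 in WD+F+CCl4, beside 7.43% and 11.6% of all genes. Pcsk6 fell in WD+F+CCl4 (log2 fold change -4.54, edgeR adjusted p = 0.0216), a call kept in 10 of 16 alternatives. Its counts were low throughout, at 1.53 and 1.66 CPM in control mice and 0.0202 to 0.119 CPM in WD+F+CCl4 mice. The part of the controls' hepatocyte markers in this fall was not tested.

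**Figure D5:**
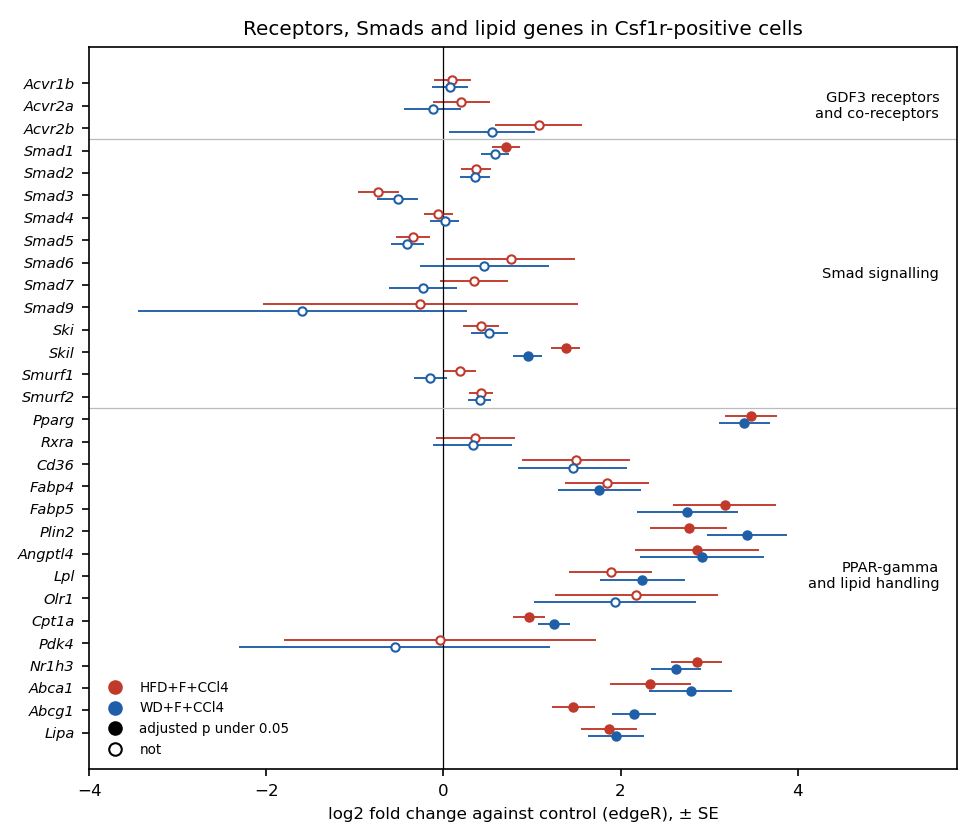
Log2 fold changes against control in Csf1r-positive cells, with the SE as bars, for the tested receptors of GDF3, Smad signalling genes and PPARγ and lipid handling genes, with 1 point per NASH model and filled points for genes past the adjusted p threshold of 0.05. The receptors have open points only, and the lipid list lies highest, with medians of 1.89 and 2.15.

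The list of other TGF-β superfamily ligands held 32 genes, among them Bmp1, which shares the family's name but encodes a protease. Of these genes 20 were high enough to test. The list's median log2 fold change, with Bmp1 counted (-0.365 and -1.857, not called), was -0.52 in HFD+F+CCl4 and -1.82 in WD+F+CCl4. In HFD+F+CCl4 1 rose and 2 fell, against 3.74% and 3.69% of all genes called higher and lower, and in WD+F+CCl4 1 rose and 4 fell, against 6% and 5.59%. Tgfb1 stood at 421, 332 and 389 CPM in HFD+F+CCl4 mice, 378, 421 and 338 CPM in WD+F+CCl4 mice and 188 and 140 CPM in control mice, and every NASH mouse lay above both controls (log2 fold change 1.34 and 1.40; edgeR adjusted p = 0.0220 and 0.0136). Gdf11 was at 0.673 to 1.33 CPM in NASH mice and at 14.8 and 19.9 CPM in control mice (log2 fold change -3.86 and -3.71; edgeR adjusted p = 0.00447 and 0.00381). Bmp7 was at 0.303 to 1.02 CPM in NASH mice and at 6.29 and 9.97 CPM in control mice (-3.14 and -3.49; edgeR adjusted p = 0.0161 and 0.00859). The activin genes Inhbc and Inhbe, which hepatocytes make, fell in WD+F+CCl4 (-5.57 and -4.10; edgeR adjusted p = 0.0138 and 0.0475), with calls kept in 14 and 6 of 16 alternatives. Beside the hepatocyte and T cell markers given above, the summed endothelial markers stood at 347 and 1140 CPM in the Csf1r-positive cells of control mice and at 60.4 to 797 CPM in NASH mice, and the part of these cell types in the fall of the ligands was not tested.

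Between the NASH models, 0 of 18454 genes passed the edgeR test, 811 had an unadjusted p under 0.05, and DESeq2 called 43. Of the genes called against control, 50.4% were higher in HFD+F+CCl4 (691 higher, 681 lower) and 51.8% in WD+F+CCl4 (1107 higher, 1032 lower). When library totals alone replaced the TMM scaling these shares were 39.1% (542 higher, 843 lower) and 35.6% (697 higher, 1260 lower), and the median of all genes shifted by -0.13 and -0.203 on the log2 scale, far less than the distance of either member from the controls.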

How the data were processed

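The authors deposited 1 matrix of raw UMI counts per gene and cell for the 8 libraries, made with bcl2fastq 2.20 and Cell Ranger (4.0.0 in the matrix header) on GRCm38. Kept barcodes had more than 500 genes and under 25% mitochondrial UMIs. The members and all gene lists were chosen with earlier results of these data known. Counts were scaled to 10000 UMIs per cell, and 2000 variable genes without Gdf3 and Gdf15, 30 principal components, 20 neighbours and Leiden clustering at resolution 0.8 (leidenalg 0.10.2) gave 38 clusters, of which 3 were left unnamed and the others were named from marker lists. The naming rules were set after the data were seen, so shares may differ from the study's own cell types. No doublet caller was run. An alternative was called without mixed barcodes. It left out Csf1r-positive cells with 2 or more UMIs of T cell, B cell, NK cell, neutrophil, endothelial or hepatocyte markers. It kept 1177 to 4247 such cells per NASH mouse, of 6772 to 7994, and 62 and 73 of the controls' 1110 and 411. Whether the cells left out were doublets was not tested. CPM values are counts per 1000000 UMIs of the cells named, and shares were repeated with each cell thinned to 1000 UMIs, without cells below that depth. Intervals are exact binomial (Clopper-Pearson, 95%) and, like the limit of 3 counts for a count of 0, cover counting error only.

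UMI counts of Csf1r-positive cells were summed per mouse, and all 8 mice entered 1 edgeR 4.0.16 quasi-likelihood fit (filterByExpr, TMM, group as the only factor; adjusted p under 0.05). Each library is 1 mouse. DESeq2 1.42.0, other scaling, filters and cell choices, a replicate block and leaving out each mouse were the alternatives. In counts simulated from these libraries in which 200 genes were given a log2 change of 2, edgeR recovered 67.5% (HFD+F+CCl4 against control, 17995 genes) and 62% (WD+F+CCl4, 17992 genes), with 6 and 7 false calls. Named were Gdf3, Gdf15, every receptor, the 3 called genes with the largest fold change per list and comparison with control, and the 15 genes with the highest median correlation with each member. The single genes of the comparison by member UMIs and the early response genes were picked after their values were seen. Replicate numbers, compared through the correlation of deviations from group means, did not pair the mice.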

Additional observations from a re-analysis of the deposited data

Results flagged for a closer look

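In groups of 4 to 6 NASH mice, 11 of 44 cell types and genes examined had 1 mouse farther from the others than Dixon's criterion allows. Its rate of about 5% by chance holds for normally distributed values. Here many counts were sparse, and 1 mouse with UMIs among mice at 0 is always flagged. The Csf1r-positive and Csf1r-negative cells also overlap with the cell types. No excess over chance is therefore read from these flags. For Gdf3 these were B cell-like cells of HFD+F+CCl4 replicate 2 (35.42 CPM, from 33 UMIs in 353 cells, with the nearest mouse at 10.89 CPM) and cycling cells of WD+F+CCl4 replicate 3 (63.71 CPM, nearest 28.53 CPM).

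For Gdf15, 6 of the 9 were HFD+F+CCl4 replicate 1, always as the highest mouse. Its levels were 14.97 CPM in Csf1r-negative cells (nearest 5.636 CPM), 14.71 CPM in B cell-like cells (5 UMIs, nearest 3.822 CPM), 25.81 CPM in cholangiocyte-like cells (51 UMIs, nearest 6.232 CPM), 93.21 CPM in Cxcl9 Cxcl10 macrophage-like cells (26 UMIs in 59 cells, nearest 21.21 CPM), 17.49 CPM in NK cell-like cells (11 UMIs, nearest 4.74 CPM) and 31.12 CPM in patrolling monocyte-like cells (199 UMIs, nearest 12.54 CPM). WD+F+CCl4 replicate 1 stood at 23.32 CPM in cells scored as C1q macrophages and patrolling monocytes (nearest 10.73 CPM). HFD+F+CCl4 replicate 2 stood at 3.28 CPM in plasma cell-like cells and at 4.468 CPM in red blood cell-like cells, from 1 and 2 UMIs, with the other mice at 0. In HFD+F+CCl4 replicate 1 the early response and heat shock genes summed to 4478 CPM in Csf1r-positive cells, and their part in its Gdf15 levels was not tested.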

How the results depend on the processing

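The replicate block, fitted although the numbers did not pair the mice (same-number correlations from -0.618 to 0.108, and not every mouse correlated best with its own number), left 206 called genes in HFD+F+CCl4 and 476 in WD+F+CCl4, against 1372 and 2139 without it. The same counts were 2423 (HFD+F+CCl4) with DESeq2, 594 (HFD+F+CCl4) with only the 2 groups compared, 859 and 1101 in the monocyte and macrophage clusters, and 123 and 183 without mixed barcodes. Between the models DESeq2 called 43 genes and edgeR 0. Leaving out 1 mouse gave 218 to 1115 genes in HFD+F+CCl4 (218 without control replicate 2, 461 without HFD+F+CCl4 replicate 2, 774 without WD+F+CCl4 replicate 2, 857 without control replicate 1, 880 without HFD+F+CCl4 replicate 1) and 642 to 2228 in WD+F+CCl4 (642 without control replicate 2, 902 without WD+F+CCl4 replicate 2, 1139 without WD+F+CCl4 replicate 1, 1407 without control replicate 1).

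The means of both NASH models stayed above the control limit for both members under each alternative run, but not every mouse did. The log2 distance from that limit was 6.542 and 6.406 for Gdf3 (HFD+F+CCl4, WD+F+CCl4) and 5.133 and 4.785 for Gdf15. It was 2.035 and 2.416 for Gdf3 and 0.831 and 0.777 for Gdf15 without mixed barcodes, which left 62 and 73 Csf1r-positive control cells and a limit of 9.275 CPM; Gdf15 was then below the limit in 3 of 6 NASH mice (6.808 and 4.411 CPM in HFD+F+CCl4 replicates 2 and 3, 8.477 CPM in WD+F+CCl4 replicate 2), and HFD+F+CCl4 replicate 1 (38.29 CPM) set the HFD+F+CCl4 mean. It was 5.381 and 5.092 for Gdf3 and 3.563 for Gdf15 in WD+F+CCl4 in the monocyte and macrophage clusters, where the Gdf3 values are distances from 3 UMIs and no bound, since control replicate 1 held 1 Gdf3 UMI there; the ratios to the controls were 125 (counting interval 22.44 to 4938) and 102.3 (18.37 to 4042). Leaving out 1 mouse gave 3.111 to 6.677 and 2.976 to 6.695 for Gdf3 and 1.703 to 5.575 and 1.355 to 5.08 for Gdf15, lowest without control replicate 1, since the limit then rests on the shallow control replicate 2 alone (4.99 CPM, above the 4.59 CPM of Gdf15 in HFD+F+CCl4 replicate 3). Without clusters 8 and 11, an alternative added after the data were seen, the distances were 6.458, 6.412, 4.675 and 4.62. The mean share of Gdf3-positive Csf1r-positive cells was 9.361%, and 3.132% after thinning. Of the 15 genes that went with each member, 3 (Gdf3) and 8 (Gdf15) remained within cluster 0, and 1 for each when ranked by the ratio of positive to negative cells. The low cell number of the controls and the depth of control replicate 2 limit every statement on control cells. Under the alternatives, 88 other values stayed close to those reported. Close means within 1.5 times the reported count of genes, or within the spread between mice for the members' distances and shares. Some of the 88 could not move, such as a model's distance when a mouse of the other model was left out.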
